A study of Homo sapiens with 6 samples.

Results

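The growth factor ligands PDGFA, PDGFB, PDGFC, PDGFD, TGFB1, TGFB2, TGFA, HBEGF, AREG and KITLG were examined in K562 cells, a human leukemia cell line of erythroid character. These 10 genes were named by symbol out of 61661 identifiers in the count table, of which 60675 were Ensembl genes and 986 were unnamed genes outside the annotation. The group was chosen by measured values, because PDGFB moved in opposite directions in the knockdown groups, so PDGFB is described here without a test. The labels gave 2 libraries each of shCTR cells (genotype WT), shMETTL3 cells (METTL3 knockdown) and shMETTL14 cells (METTL14 knockdown), 6 in all, grown in RPMI1640 medium with serum and taken in logarithmic phase. According to the study's methods, the shCTR and shMETTL3 lines were stable lentiviral lines under puromycin, the control carrying a nonsense sequence. How the shMETTL14 line was made is not given in the sources used here. No source said that the libraries of a group came from separate cultures, so every p-value measures the spread between these libraries, which may be technical.

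Growth factors of these families are secreted or shed proteins that bind receptors on the same or neighbouring cells. PDGF chains pair into dimers that activate the tyrosine kinases PDGFRA and PDGFRB, EGF-type ligands are cut from the membrane and bind EGFR and the other ERBB receptors, and KITLG activates KIT. TGF-beta ligands are secreted in a latent form and, once released, act through serine/threonine kinase receptors and SMAD proteins. METTL3 and METTL14 form the core of the complex that places N6-methyladenosine (m6A) on mRNA, often at the adenosine of the letters GGACU.

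Library totals ran from 19292574 to 20115304 reads. METTL3 had 1788 and 1728 reads in shCTR, 1031 and 938 in shMETTL3, and 1731 and 1498 in shMETTL14 libraries. Its log2 fold change in shMETTL3 against shCTR was -0.87 (adjusted p = 3.44e-07, edgeR's quasi-likelihood test). METTL14 had 656 and 655 reads in shCTR, 752 and 710 in shMETTL3, and 375 and 404 in shMETTL14 libraries, a log2 fold change of -0.76 in shMETTL14 against shCTR (adjusted p = 1.40e-05, edgeR). In each knockdown group the targeted gene was below both control libraries. All 13 erythroid markers were tested, and their summed level lay between 1817 and 1863 CPM (reads scaled to library size) in the shCTR and shMETTL14 libraries and at 2069 and 2070 CPM in the shMETTL3 libraries. At an adjusted p under 0.05 (edgeR), 7 were higher and 1 lower in shMETTL3 cells, beside 8.73% and 7.73% of all tested genes. In shMETTL14 cells 4 were higher and none lower, beside 3.43% and 3.26%. For that count of none, 1 was lower at an unadjusted p under 0.05 and 0 by DESeq2. The labels gave the tissue as pleural effusion, from which the K562 line was derived.

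Of the 10 ligands, 4 had enough reads for a test (PDGFA, PDGFB, TGFB1 and AREG) and 6 did not (PDGFC, PDGFD, TGFB2, TGFA, HBEGF and KITLG). The filter kept genes with about 10 reads or more in as many libraries as a group holds, which left 17686 genes. Apart from PDGFB, 3 ligands were thus tested. In shMETTL3 against shCTR cells, TGFB1 was higher and AREG lower, that is 1 of 3 in each direction, where 8.73% of all tested genes were called higher and 7.73% lower at an adjusted p under 0.05. In shMETTL14 against shCTR cells, AREG was lower and none of the 3 was higher, beside 3.43% of all tested genes called higher and 3.26% lower. In shMETTL3 against shMETTL14 cells, PDGFA and TGFB1 were higher and none was lower, beside 6.65% called higher and 5.49% lower. In the counts of none, 1 ligand (TGFB1) was higher in shMETTL14 cells and none was lower between the knockdowns at an unadjusted p under 0.05, and DESeq2 called 0 in either. With 3 ligands tested, these counts say nothing about the group as a whole. The comparisons of each knockdown with shCTR shared the same 2 control libraries.

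PDGFB encodes the B chain of platelet-derived growth factor and lies on the minus strand at chr22:39223359-39244751 (GRCh38, GENCODE 29). It had 591 and 660 reads in shCTR, 1083 and 1383 in shMETTL3, and 366 and 375 in shMETTL14 libraries. The 3 groups did not overlap: both shMETTL3 libraries were above, and both shMETTL14 libraries below, the control libraries. In CPM scaled by edgeR's TMM factors, the level was 32.2 ± 3.23 (SD, n = 2) in shCTR, 62.0 ± 9.75 (SD, n = 2) in shMETTL3 and 18.9 ± 0.355 (SD, n = 2) in shMETTL14 cells. PDGFB thus changed by 0.95 on the log2 scale (standard error, SE, 0.0971) in shMETTL3 against shCTR cells and -0.77 (SE 0.108) in shMETTL14 against shCTR cells. Between the knockdowns it was 1.72 (SE 0.103), a level 3.29-fold higher in shMETTL3 than in shMETTL14 cells. These are the values that chose the group, and they were given no p-value. In bulk RNA, a change in the number of cells that express a gene and a change in RNA per cell cannot be told apart.

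**Figure D1:**
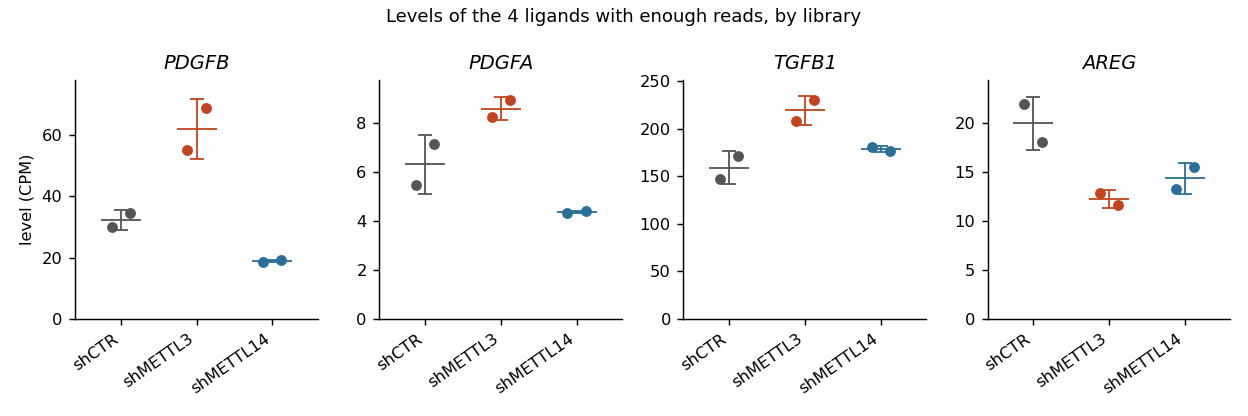
Level in TMM-scaled CPM (vertical axis, from 0) of PDGFB, PDGFA, TGFB1 and AREG in each of the 6 libraries (points), with the mean and SD of each group (bars, n = 2). PDGFB and PDGFA were highest in both shMETTL3 libraries and lowest in both shMETTL14 libraries, TGFB1 was highest in shMETTL3 libraries, and AREG was highest in the shCTR libraries.

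PDGFA, the A chain, which can pair with the B chain, lies on the minus strand at chr7:497258-520296. It had 108 and 137 reads in shCTR, 162 and 179 in shMETTL3, and 85 and 86 in shMETTL14 libraries. The groups stood in the same order as for PDGFB and did not overlap. The level was 6.31 ± 1.20 CPM (SD, n = 2) in shCTR, 8.58 ± 0.476 (SD, n = 2) in shMETTL3 and 4.36 ± 0.0430 (SD, n = 2) in shMETTL14 cells. Between the knockdowns PDGFA was higher in shMETTL3 cells by a log2 fold change of 0.98 (SE 0.169, adjusted p = 5.22e-04, edgeR), and this call held under all 13 alternative fits, which changed the tool, the scaling, the filter, the model or the libraries used. Against shCTR cells neither change passed the test. The log2 fold change was 0.45 (SE 0.161, adjusted p = 0.0647, edgeR) in shMETTL3 and -0.53 (SE 0.176, adjusted p = 0.0773, edgeR) in shMETTL14 cells. Both depended on the control libraries and on the fit. Without shCTR replicate 2 the shMETTL3 value was 0.65 (adjusted p = 0.0183, edgeR), without shCTR replicate 1 it was 0.26 (adjusted p = 0.382, edgeR), and the shMETTL14 value was -0.72 without shCTR replicate 1 (adjusted p = 0.0332, edgeR) and -0.33 without shCTR replicate 2 (adjusted p = 0.324, edgeR). The shMETTL3 value also passed with library size alone as scaling (0.50, adjusted p = 0.0380, edgeR), and the shMETTL14 value with the GC and length trend removed (-0.54, adjusted p = 0.0490, edgeR).

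PDGFC and PDGFD, chains that are secreted with an extra domain that must be cut off before they bind receptors, were near the detection floor. PDGFC (minus strand, chr4:156760454-156971394) had 0 and 2 reads in shCTR, 1 and 0 in shMETTL3, and 1 and 1 in shMETTL14 libraries. PDGFD (minus strand, chr11:103907186-104164379) had 1 and 2 reads in shCTR, 7 and 11 in shMETTL3, and 0 and 3 in shMETTL14 libraries. Both shMETTL3 libraries were thus above the other 4, with 18 reads in sum against 3 in shCTR and 3 in shMETTL14 libraries. The ratio of PDGFD to shCTR, scaled to library size, was 5.88, with an exact 95% interval for counting error of 1.72 to 31.2. When the filter on low counts was dropped, PDGFD did not pass the test against shCTR (log2 fold change 2.46, SE 0.921, adjusted p = 0.133, edgeR) or against shMETTL14 (log2 fold change 2.47, adjusted p = 0.159, edgeR). Reads were amplified by PCR without molecular identifiers, so such intervals cover counting error only.

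TGFB1, a main regulator of growth arrest and matrix production in many tissues, had the most reads of the 10 ligands. It lies on the minus strand at chr19:41301587-41353911. It had 2908 and 3278 reads in shCTR, 4096 and 4624 in shMETTL3, and 3547 and 3459 in shMETTL14 libraries. No library of either knockdown overlapped the control libraries, and both shMETTL3 libraries were above both shMETTL14 libraries. In shMETTL3 cells TGFB1 was higher than in shCTR cells by a log2 fold change of 0.46 (SE 0.0722, adjusted p = 1.98e-04, edgeR), a level of 219 ± 15.5 CPM (SD, n = 2) against 159 ± 17.0 (SD, n = 2), and the call held under all 13 alternative fits. With the GC and length trend removed the value was 0.31 (adjusted p = 2.10e-04, edgeR). In shMETTL14 cells the level was 178 ± 2.88 CPM (SD, n = 2) and the difference from shCTR did not pass the test (log2 fold change 0.17, SE 0.0725, adjusted p = 0.197, edgeR), with 0.28 without shCTR replicate 2 (adjusted p = 0.0133, edgeR) and 0.060 without shCTR replicate 1 (adjusted p = 0.707, edgeR). The difference between the knockdowns passed (log2 fold change 0.30, SE 0.0719, adjusted p = 0.00837, edgeR). It no longer passed without shMETTL3 replicate 2 (0.23, adjusted p = 0.182, edgeR), without shMETTL14 replicate 1 (0.31, adjusted p = 0.0786, edgeR) or without shMETTL14 replicate 2 (0.28, adjusted p = 0.107, edgeR). The exons of TGFB1 share 215 bases with HNRNPUL1 on the opposite strand, and whether the counting used strand is not given in the sources used here, so reads there could not be told apart. HNRNPUL1 had 6481 to 7060 reads and log2 fold changes of 0.04, -0.01 and 0.04 in the same 3 comparisons, none of them past the test. TGFB2 (plus strand, chr1:218346235-218444619), a second isoform of the cytokine, had 2 or 3 reads in every library.

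**Figure D2:**
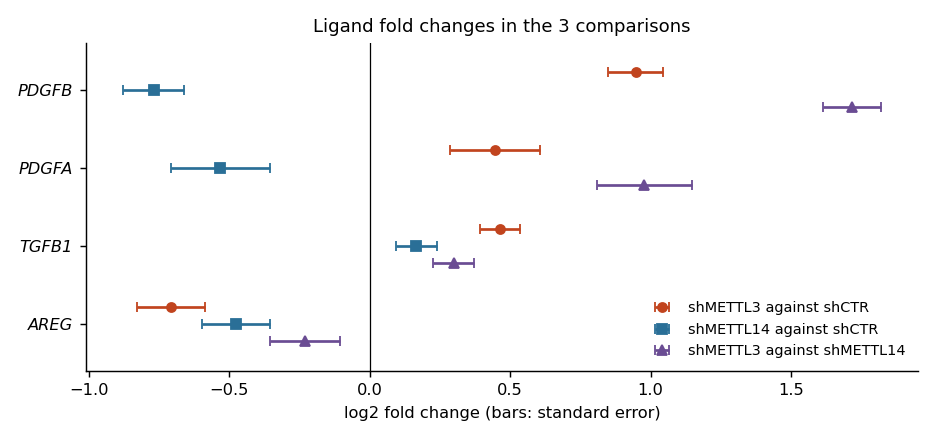
Log2 fold change (horizontal axis, bars give the standard error) of the 4 ligands with enough reads in shMETTL3 against shCTR (circles), shMETTL14 against shCTR (squares) and shMETTL3 against shMETTL14 (triangles). PDGFB and PDGFA had values above 0 in the first comparison and below 0 in the second, TGFB1 had values from 0.17 to 0.46 in all 3, and AREG had values from -0.71 to -0.23.

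AREG, amphiregulin, an EGF-type ligand that is shed from the cell surface and binds EGFR, was lower in both knockdown groups. It lies on the plus strand at chr4:74445134-74455009. It had 433 and 346 reads in shCTR, 253 and 233 in shMETTL3, and 260 and 304 in shMETTL14 libraries. Every knockdown library was below both control libraries. The level was 20.0 ± 2.71 CPM (SD, n = 2) in shCTR, 12.2 ± 0.896 (SD, n = 2) in shMETTL3 and 14.4 ± 1.61 (SD, n = 2) in shMETTL14 cells. The log2 fold change was -0.71 in shMETTL3 (SE 0.122, adjusted p = 5.03e-04, edgeR), a call that held under all 13 alternatives. In shMETTL14 cells it was -0.48 (SE 0.120, adjusted p = 0.0196, edgeR). That call was lost with DESeq2 (-0.48, adjusted p = 0.0538), without shCTR replicate 1 (-0.33, adjusted p = 0.177, edgeR), without shMETTL14 replicate 1 (-0.37, adjusted p = 0.309, edgeR) and without shMETTL14 replicate 2 (-0.60, adjusted p = 0.0516, edgeR). The knockdowns did not differ by the test (log2 fold change -0.23, SE 0.126, adjusted p = 0.273, edgeR).

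EREG, epiregulin, another EGF-type ligand and the neighbour of AREG, lies 56382 bases upstream on the same strand (chr4:74365143-74388751). It had 2849 and 2022 reads in shCTR, 1566 and 1630 in shMETTL3, and 1209 and 1428 in shMETTL14 libraries. As for AREG, every knockdown library was below both control libraries. EREG fell by 0.63 on the log2 scale in shMETTL3 (SE 0.103, adjusted p = 3.12e-04, edgeR) and by 0.90 in shMETTL14 cells (SE 0.105, adjusted p = 1.58e-05, edgeR), and both calls held under all 13 alternatives. Without shCTR replicate 1 the shMETTL3 value was -0.39. Since the neighbours were both lower, their promoters are printed side by side, from 250 bases before to 50 bases after the RefSeq start (GRCh38.p14, both on the plus strand, chr4:74444886-74445185 for AREG and chr4:74364895-74365194 for EREG). Capitals mark 3 motifs searched on both strands: TGACGTCA, the full cyclic AMP response element, then the core promoter box TATAAA, and the letters CCAAT, which do not overlap one another here.
AREG promoter: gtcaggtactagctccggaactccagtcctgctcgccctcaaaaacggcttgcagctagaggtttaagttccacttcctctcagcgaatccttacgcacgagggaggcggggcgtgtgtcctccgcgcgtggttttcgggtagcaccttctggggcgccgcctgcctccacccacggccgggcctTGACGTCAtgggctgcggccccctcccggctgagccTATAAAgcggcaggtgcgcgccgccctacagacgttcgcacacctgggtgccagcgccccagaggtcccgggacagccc
EREG promoter: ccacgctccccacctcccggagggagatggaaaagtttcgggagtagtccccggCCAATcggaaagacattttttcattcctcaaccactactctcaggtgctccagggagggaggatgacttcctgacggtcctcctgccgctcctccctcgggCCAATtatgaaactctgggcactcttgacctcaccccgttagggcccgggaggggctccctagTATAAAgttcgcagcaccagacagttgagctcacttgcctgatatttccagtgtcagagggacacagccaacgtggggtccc
Both promoters held TATAAA, at position -29 in AREG and -32 in EREG counted from the start, letters that 11.5% of 35116 RefSeq promoters held. TGACGTCA stood at position -65 in AREG and was not found in EREG, and 1.85% of all promoters held it. CCAAT stood at positions -196 and -95 in EREG and was not found in AREG, and 34.6% of all promoters held it. A match of letters is a description and not a site of binding.

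HBEGF, TGFA and KITLG were too low to test. HBEGF, a heparin-binding ligand of EGFR and ERBB4 (minus strand, chr5:140332843-140346631), had 7 and 6 reads in shCTR, 6 and 6 in shMETTL3, and 7 and 3 in shMETTL14 libraries. Its ratio to shCTR was 0.904 (exact 95% interval 0.377 to 2.15) in shMETTL3 and 0.762 (0.299 to 1.88) in shMETTL14 cells, intervals that both include 1, and a smaller difference was not detectable at this depth. TGFA (minus strand, chr2:70447280-70554193), another EGFR ligand, had 1 read in shCTR replicate 1, 1 in shMETTL14 replicate 1 and 0 in the other 4 libraries. KITLG (minus strand, chr12:88492793-88580851), also called stem cell factor, had 0 reads in all 6 libraries. A count of 0 allows up to 3 reads, which is 0.150 to 0.157 CPM in these libraries.

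**Figure D3:**
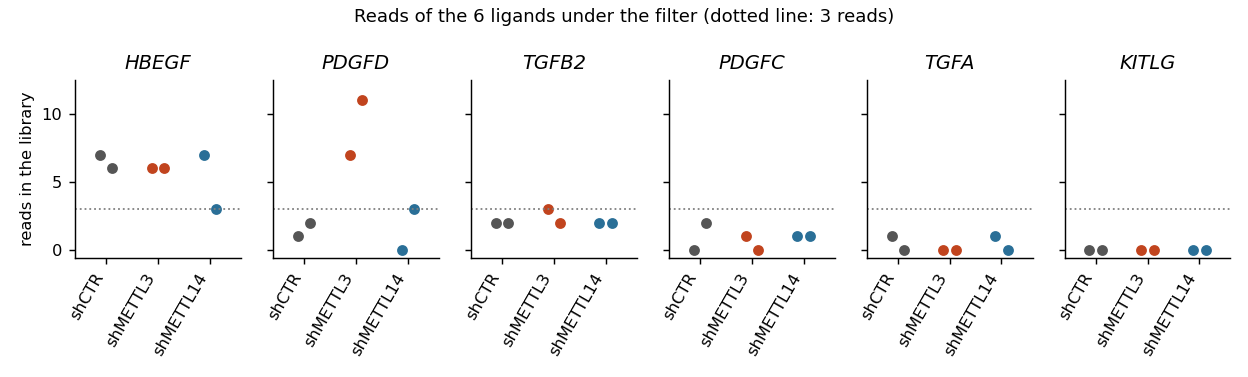
Reads per library (vertical axis) of the 6 ligands under the filter, with each point 1 library, 2 per group, and a dotted line at the floor of 3 reads. PDGFD had 7 and 11 reads in shMETTL3 libraries and at most 3 elsewhere, HBEGF had 3 to 7 reads, and the other 4 ligands stayed at 3 reads or fewer.

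Levels of different ligands were compared per kilobase of exon. In shCTR cells the order was TGFB1 (49.2 ± 5.25 CPM per kb, SD, n = 2), AREG (12.1 ± 1.65), PDGFB (8.56 ± 0.859) and PDGFA (1.52 ± 0.288). HBEGF followed at 0.111 CPM per kb, and the other 5 were below it. The spreads of these 4 leading ligands did not overlap in any group. In shMETTL3 cells PDGFB (16.5 ± 2.59 CPM per kb) stood above AREG (7.43 ± 0.544), whereas in shMETTL14 cells AREG (8.72 ± 0.976) stood above PDGFB (5.02 ± 0.0944). The change of place between PDGFB and AREG follows from the values that chose the group and was not tested.

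The mRNAs were then searched for GGACT, the DNA letters of GGACU, on the sense strand of the longest complete protein-coding transcript of each gene (GENCODE 29, GRCh38). PDGFB held 7 such runs, 6 of them in the 3′ UTR and 1 in the 5′ UTR, or 2.00 per kilobase, more than 91.1% of 12497 tested genes. TGFB1 held 4 (1.44 per kilobase, above 76.9% of genes), PDGFA held 1 (0.434 per kilobase, above 16.8%) and AREG held 0. Over all those genes, 92.2% held at least 1 run, and the median was 0.933 per kilobase. The run nearest to the stop codon is shown with 10 bases on each side for the 3 ligands that held one and had enough reads, in mRNA sense with the 5 letters in capitals.
PDGFB: agaaaaagaaGGACTgaactccatc
TGFB1: gatggagagaGGACTgcggatctct
PDGFA: aaaacaaaacGGACTcacaaaaata
They lie on the minus strand of GRCh38 at chr22:39225093-39225117, chr19:41330902-41330926 and chr7:498266-498290, each in the 3′ UTR and in the last exon. PDGFB with 7 runs and PDGFA with 1 run had values of the same sign in each of the 3 comparisons. PDGFB was given no test, and PDGFA did not pass against shCTR cells. A relation between the number of runs and the changes was not tested. Methylation of these mRNAs was not measured in these libraries, and a match says nothing about whether a site is methylated.

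The receptors of these ligands were unevenly present. Of 12 receptors, 7 were tested and 3 were at or under the floor in every library: PDGFRA had at most 1 read, and EGFR and ERBB4 had at most 2. PDGFRB had 0 to 6 reads and ACVRL1, a TGF-beta family receptor, had 0 to 12. The levels of PDGFA and PDGFB, and of AREG, thus stood beside almost no mRNA of PDGFRA, PDGFRB or EGFR, while for KITLG the case was the opposite, with the receptor KIT at 115 to 283 reads. KIT was lower in shMETTL3 (log2 fold change -1.01, SE 0.148, adjusted p = 1.04e-04, edgeR) and in shMETTL14 cells (-0.54, SE 0.142, adjusted p = 0.0253, edgeR). The second call was lost under 5 of 13 alternatives, among them without shCTR replicate 1 and without each shMETTL14 library. In all, 0 receptors were higher and 1 lower in shMETTL3, and 1 was higher and 1 lower in shMETTL14 cells, with medians of -0.10 and 0.13 beside 0.00 over all tested genes in each. With all-gene shares of 8.73% and 7.73% in shMETTL3 and 3.43% and 3.26% in shMETTL14 cells, counts of 0 or 1 in 7 receptors are near the background. At an unadjusted p under 0.05, 1 receptor was higher in shMETTL3 cells, and DESeq2 called 0.

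Of the TGF-beta receptors, TGFBR1, TGFBR2 and TGFBR3 were called between the knockdowns, and ENG, a co-receptor, was not (0.03, adjusted p = 0.959, edgeR). Of these calls, that of TGFBR1 held under all 13 alternative fits. TGFBR1, the signalling receptor, had 2276 and 2040 reads in shCTR, 1963 and 2138 in shMETTL3, and 2650 and 2585 in shMETTL14 libraries. It was higher in shMETTL14 than in shCTR cells (log2 fold change 0.27, SE 0.0657, adjusted p = 0.0176, edgeR), a call lost without either shMETTL14 library, and it was the lower of the knockdown groups in shMETTL3 cells (-0.37, SE 0.0659, adjusted p = 7.08e-04, edgeR). TGFBR2, the ligand-binding receptor, was also lower between the knockdowns (-0.69, adjusted p = 0.0348, edgeR), with 54 and 61 reads against 87 and 96. ERBB2, a co-receptor of the EGF family, was higher in the same comparison (0.40, adjusted p = 0.0239, edgeR). The calls of TGFBR2 and ERBB2 were each lost under 6 of 13 alternatives, including without any 1 of the 4 libraries compared. With TGFBR3 also lower (-0.31, adjusted p = 0.00618, edgeR, lost without any 1 of these 4 libraries), 3 of 7 tested receptors were lower and 1 higher in shMETTL3 against shMETTL14 cells, beside 5.49% lower and 6.65% higher over all tested genes.

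**Figure D4:**
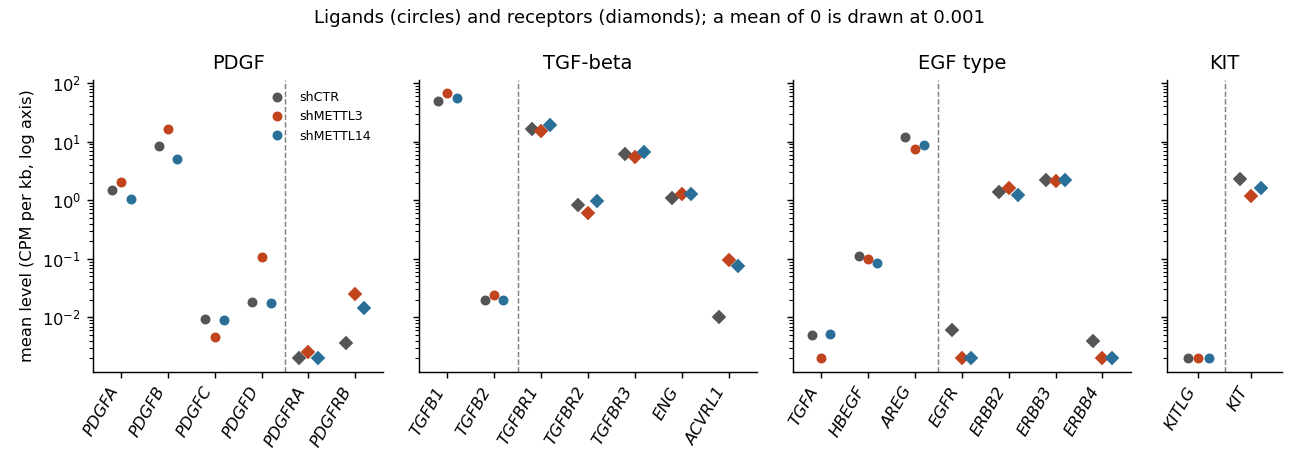
Mean level (CPM per kilobase of exon, log axis) of ligands (circles) and receptors (diamonds) in shCTR, shMETTL3 and shMETTL14 cells, with each family in a panel and n = 2 libraries a point. Means of 0 or just above 0 are drawn at a common lower limit. PDGFA, PDGFB and AREG stood well above PDGFRA, PDGFRB and EGFR, TGFB1 stood beside measurable TGFBR1, TGFBR2 and TGFBR3, and KIT was present without KITLG.

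Of 31 other ligands of the same families, 14 were tested. In shMETTL3 cells 4 were higher and 1 lower, in shMETTL14 cells 2 were higher and 2 lower, and between the knockdowns 5 were higher and 1 lower in shMETTL3 cells. Over all tested genes, 8.73% were higher and 7.73% lower, 3.43% higher and 3.26% lower, and 6.65% higher and 5.49% lower in these comparisons. GDF15, a stress-responsive member of the TGF-beta family, had 6015 and 6550 reads in shCTR, 13009 and 13347 in shMETTL3, and 7654 and 7636 in shMETTL14 libraries. It was higher in shMETTL3 (log2 fold change 1.04, SE 0.0610) and, less so, in shMETTL14 cells (0.27, SE 0.0608, adjusted p = 0.00962, edgeR), and the difference between the knockdowns passed the test (0.77, SE 0.0605). INHBE, an activin subunit, was higher in shMETTL3 cells (0.42, SE 0.0669). VEGFA, the angiogenic relative of the PDGF chains, had 5799 and 5929 reads in shCTR, 7128 and 7378 in shMETTL3, and 4773 and 4781 in shMETTL14 libraries. Its groups stood in the same order as those of PDGFB, at 0.28 in shMETTL3 (SE 0.0572, adjusted p = 0.00239, edgeR) and -0.31 in shMETTL14 cells (SE 0.0577, adjusted p = 0.00216, edgeR). BMP7, a bone morphogenetic protein, had 61 and 76 reads in shCTR, 49 and 56 in shMETTL3, and 156 and 129 in shMETTL14 libraries, and was higher in shMETTL14 cells (1.04, SE 0.192, adjusted p = 0.00187, edgeR). With the GC and length trend removed, VEGFA in shMETTL3 cells was at 0.13 and no longer passed (adjusted p = 0.0615, edgeR). The shMETTL14 calls of BMP7 and VEGFA were lost without shMETTL14 replicate 1, and that of GDF15 without shCTR replicate 1 or either shMETTL14 library. Between the knockdowns BMP7 was lower in shMETTL3 cells, a call that held under all 13 alternatives, with log2 fold changes from -1.58 to -1.32. BMP2 was higher in shMETTL3 cells when the knockdowns were compared (0.86, adjusted p = 0.0479, edgeR), a call lost under 6 of 13 alternatives. Its reads were 45 and 40 in shCTR, 44 and 46 in shMETTL3, and 21 and 28 in shMETTL14 libraries. Only the shMETTL14 libraries thus stood apart from the controls.

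Ligands of these families need processing enzymes and latency proteins, of which 18 of 23 were tested. In shMETTL3 cells 1 was higher and 1 lower, and in shMETTL14 cells none was higher (1 at an unadjusted p under 0.05, 0 by DESeq2) and 4 were lower. The shares over all tested genes were 8.73% higher and 7.73% lower in shMETTL3 and 3.43% higher and 3.26% lower in shMETTL14 cells. A count of 1 in 18 is thus near the background, whereas 4 of 18 lower in shMETTL14 cells is above its share. THBS1, thrombospondin 1, which can release latent TGF-beta, had 355 and 332 reads in shCTR, 499 and 601 in shMETTL3, and 176 and 160 in shMETTL14 libraries. It was higher in shMETTL3 (log2 fold change 0.65, SE 0.105, adjusted p = 2.81e-04, edgeR) and lower in shMETTL14 cells (-1.04, SE 0.120, adjusted p = 1.27e-05, edgeR), with no overlap between any of the groups. PLAU, a protease that acts upstream of plasmin, was lower in shMETTL3 (-0.79, SE 0.148) and in shMETTL14 cells (-0.52, adjusted p = 0.0332, edgeR), the second call being lost under 6 of 13 alternatives, including without each library of the groups compared. Between the knockdowns 2 of the 18 were higher and 1 lower in shMETTL3 cells, beside 6.65% and 5.49% of all tested genes. ADAM9 was higher (0.24) and ITGAV lower (-0.28) in shMETTL3 than in shMETTL14 cells. These calls were lost without either shMETTL14 library and without shMETTL3 replicate 2, and for ADAM9 also without shMETTL3 replicate 1. ADAM9 had 2011 and 1874 reads in shCTR, 1797 and 1781 in shMETTL3, and 1460 and 1531 in shMETTL14 libraries. Both knockdown groups were thus below the control libraries. ITGAV had 1829 and 1538, 1633 and 1526, and 1850 and 1938 reads in the same order.

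Of 15 genes of the SMAD pathway, 14 were tested, with 3 higher in shMETTL3, 1 lower in shMETTL14 and 1 higher in shMETTL3 against shMETTL14 cells, beside 8.73%, 3.26% and 6.65% of all tested genes. SMAD9, a receptor-regulated SMAD of the BMP branch, was higher in shMETTL3 cells (log2 fold change 0.89, SE 0.259, adjusted p = 0.0229, edgeR), and so was the inhibitory SMAD7 (0.64, SE 0.190, adjusted p = 0.0238, edgeR). The first call was lost under 3 of 13 alternatives, with DESeq2, without shCTR replicate 1 and without shMETTL3 replicate 2. The second was lost under 5, with DESeq2, with the GC and length trend removed, without shCTR replicate 2 and without either shMETTL3 library. SMURF2, a ubiquitin ligase of the pathway, was lower in shMETTL14 cells (-0.28, adjusted p = 0.0440, edgeR), a call kept in 4 of 13 alternatives. Among 17 genes commonly listed as TGF-beta targets, 12 were tested, with 5 higher and 0 lower in shMETTL3 cells, 2 higher and 1 lower in shMETTL14 cells, and 4 higher and 0 lower in shMETTL3 against shMETTL14 cells. SMAD7 and SKIL stand in both lists, and the call of SMAD7 in shMETTL3 cells is counted in each. The shares of all tested genes called higher and lower were 8.73% and 7.73%, 3.43% and 3.26%, and 6.65% and 5.49% in the same comparisons. The median of the 12 was 0.45, 0.17 and 0.14 in these comparisons, beside 0.00 over all tested genes in each. CDKN1A, a cell cycle inhibitor, had 664 and 716 reads in shCTR, 1413 and 1471 in shMETTL3, and 745 and 820 in shMETTL14 libraries, and was higher in shMETTL3 cells by 1.03 (SE 0.0771). BHLHE40 was higher in shMETTL14 cells (0.35, SE 0.0633) and BAMBI, a decoy receptor, lower (-0.56, SE 0.0983), the call of BAMBI being lost without shMETTL14 replicate 1. ID3, an inhibitor of helix-loop-helix factors, was higher there (0.59, adjusted p = 0.0413, edgeR), a call kept in 5 of 13 alternatives. BHLHE40 had 2029 and 1878 reads in shCTR, 2547 and 2711 in shMETTL3, and 2529 and 2495 in shMETTL14 libraries. ID3 had 84 and 102, 128 and 131, and 133 and 149 reads in the same order. Both genes were thus above the control libraries in the shMETTL3 libraries too. Of the targets not called lower, 1 was lower in shMETTL3 cells at an unadjusted p under 0.05 and 0 between the knockdowns, and DESeq2 called 0 in either. Several of these targets respond to other signals too, and these counts do not measure TGF-beta activity.

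All 14 adaptors and regulators of receptor tyrosine kinases were tested. In shMETTL3 cells 1 was higher (CRK, log2 fold change 0.25) and 3 were lower, among them CBLB (-0.28) and SOS1 (-0.24), beside 8.73% and 7.73% of all tested genes. In shMETTL14 cells LRIG1, a negative regulator of ERBB receptors, was higher (1.34, SE 0.398, adjusted p = 0.0473, edgeR) on 11 and 12 reads in shCTR against 21 and 38 in shMETTL14 libraries. These calls were kept in 5, 3, 9 and 5 of 13 alternatives for CRK, CBLB, SOS1 and LRIG1, and each was lost without some single library. No other adaptor was called in shMETTL14 cells, where 3.43% of all tested genes were higher and 3.26% lower. With none called lower there, 3 were lower at an unadjusted p under 0.05 and 0 by DESeq2. None of the 14 differed between the knockdowns by edgeR's adjusted test, with 1 higher and 3 lower at an unadjusted p under 0.05 and 0 called by DESeq2. Over all tested genes, 6.65% were higher and 5.49% lower between the knockdowns, so all these counts are on few genes.

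Genes whose pattern was most like that of PDGFB were found among 11360 tested genes with 100 reads or more on average, by Euclidean distance over the 6 libraries of log2 CPM centred on each gene's mean. The nearest was NPTXR, a neuronal pentraxin receptor, at a distance of 0.134, followed by SNPH (0.374), PAK6 (0.399), THBS1 (0.400) and 1 unnamed identifier outside the annotation (0.431). NPTXR had 200 and 207 reads in shCTR, 360 and 473 in shMETTL3, and 130 and 126 in shMETTL14 libraries. PDGFA ranked 36 by the same distance, TGFB1 713 and AREG 10947. These ranks describe the profiles of genes chosen for likeness and carry no test.

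**Figure D5:**
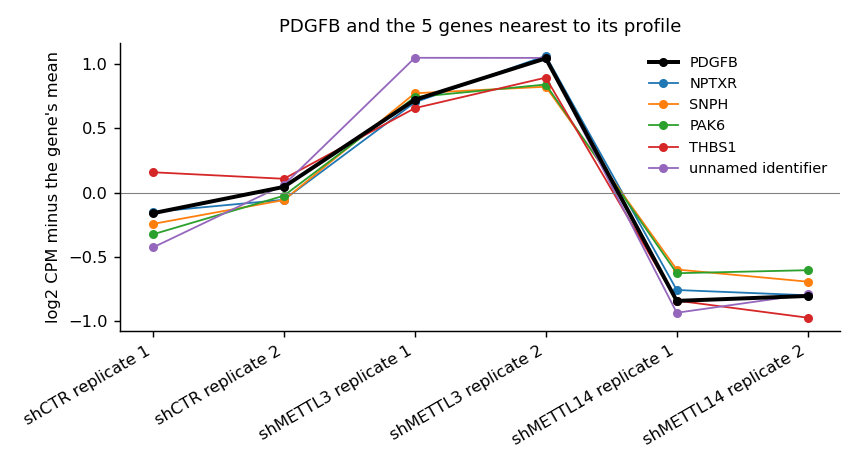
Log2 CPM minus each gene's own mean (vertical axis) in the 6 libraries for PDGFB (black) and the 5 genes nearest to it among 11360. All 6 lines were highest in the shMETTL3 libraries and lowest in the shMETTL14 libraries, and NPTXR ran closest to PDGFB.

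PDGFB, PDGFA, TGFB1 and THBS1 are also known as products of megakaryocytes and platelets, so markers of that lineage were set beside them. Of 13 megakaryocyte and platelet markers 5 were tested, 3 of them higher in shMETTL3 cells and 1 in shMETTL14 cells, and GP9, GP1BB and PF4 had 0 reads in every library. Their summed level was 23.5 to 24.1 CPM in shCTR, 40.5 to 42.4 in shMETTL3 and 25.3 to 25.8 in shMETTL14 libraries. These calls stood beside 8.73% and 3.43% of all tested genes called higher. ITGA2B, an integrin chain of the lineage, had 227 and 254 reads in shCTR, 441 and 405 in shMETTL3, and 220 and 211 in shMETTL14 libraries, and ITGB3 had 4 and 4, 14 and 14, and 1 and 1, so both ran in the order of PDGFB. ITGA2B was higher in shMETTL3 cells. ITGB3 reached 10 reads in the shMETTL3 libraries alone, so it was tested only because it was high there. Its call as higher, 1 of the 3 counted above, therefore carries no weight. In shMETTL14 libraries its 1 read each lay under the floor of 3. The log2 fold changes of ITGA2B and ITGB3 in shMETTL14 cells, -0.17 and -1.89, did not pass (adjusted p = 0.456 and 0.277, edgeR). TUBB1, a tubulin of platelets, with 88 and 84, 235 and 248, and 150 and 156 reads, was higher in both knockdown groups (1.46 and 0.82). GP1BA and GP6, also tested, were not called in either knockdown group. They stood at 0.18 and -0.10 in shMETTL3 cells (adjusted p = 0.673 and 0.829, edgeR) and at -0.03 and -0.04 in shMETTL14 cells. Monocyte markers, of which 2 of 8 were tested, summed to 43.2 to 44.9, 16.5 to 17.7 and 61.1 to 66.4 CPM, most of it from LYZ. LYZ was lower in shMETTL3 (-1.43, adjusted p = 1.39e-09, edgeR) and higher in shMETTL14 cells (0.54, adjusted p = 1.19e-04, edgeR). Its changes were thus opposite in sign to those of PDGFB. Fibroblast markers, of which 2 of 6 were tested, summed to 2.92 to 3.44, 6.73 to 7.23 and 4.02 to 4.08 CPM, and lymphoid markers, 3 of 6 tested, to 6.68 to 7.21, 9.72 to 10.5 and 7.43 to 7.91 CPM. COL1A1 (1.11, adjusted p = 9.30e-04, edgeR) and CD3D (0.66, adjusted p = 0.0226, edgeR) of these lists were higher in shMETTL3 cells. No other tested gene of the monocyte, fibroblast and lymphoid lists was called against shCTR cells. Over all tested genes 8.73% were higher and 7.73% lower in shMETTL3, and 3.43% and 3.26% in shMETTL14 cells. The part of these marker levels in the ligand results was not tested.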

How the data were processed

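The 6 K562 libraries (2 per group) were grouped by the submitters' labels. The authors selected poly(A) RNA on oligo(dT) beads, primed cDNA at random, amplified it by PCR and sequenced on HiSeq. They deposited 1 table of raw counts per gene, not normalized. The submitters' processing notes name HTSeq 0.6.1 and hg38. The aligner, annotation release and strand setting are not given in the sources used here. Symbols were matched for 56558 identifiers by a gene name table and for 497 more by GENCODE 29. Identifiers outside the annotation held 0.635% to 0.703% of reads and stayed in the totals.

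Totals ran from 19292574 to 20115304 reads, so 3 reads, taken as the floor, were about 0.15 CPM. The test across genes was the quasi-likelihood test of edgeR 4.0.16 in R 4.3.3 on TMM-scaled counts (filterByExpr, minimum count 10, all 6 libraries in 1 fit, Benjamini-Hochberg over 17686 genes, threshold 0.05). Intervals of ratios of low counts were exact. Alternatives were DESeq2 1.42.0, 2 other scalings, no filter, a block for the replicate number, a fit of the compared groups alone, removal of a trend on GC content and length (mgcv 1.9.3), each library left out, and a fold threshold. On 3 simulated sets with 200 genes changed 2-fold for shMETTL3 against shCTR, 75.4% of the changed genes were called, 96.4% of those with 50 counts or more, and 6.54% of calls were false. Positions, exons and transcripts came from GENCODE 29 (GRCh38), and promoters from RefSeq (GRCh38.p14).

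The ligands, the pathway and marker lists and the tests were chosen with earlier results of these data known. Named were all 10 ligands, METTL3 and METTL14, per list and comparison up to 2 of the largest rises and falls among called genes, low receptors, and the 5 genes nearest to PDGFB. Beyond this rule, TGFBR3, ENG, ITGA2B, ITGB3, TUBB1, GP1BA, GP6, LYZ, COL1A1, CD3D and HNRNPUL1 were named after their values were seen, as were the values of VEGFA in shMETTL3 cells. Same-numbered replicates were not paired: correlations of their deviations were 0.0614, 0.00511 and -0.0200.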

Additional observations from a re-analysis of the deposited data

Results flagged for a closer look

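For 3 ligands the measured levels of shMETTL3 and shMETTL14 cells stood apart. For PDGFA the log2 fold change of shMETTL3 against shMETTL14 was 0.98 and passed edgeR's test of that difference. For TGFB1 it was 0.30 and passed the same test, a call lost without shMETTL3 replicate 2 or without either shMETTL14 library. For PDGFB it was 1.72, a difference that was not tested because it chose the group.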

How the results depend on the processing

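No result reversed its direction under any alternative. With a fold threshold of 2 added, 0 ligands were called in each of the 3 comparisons, and 3, 3 and 2 genes of the pathway lists were called in shMETTL3 against shCTR, shMETTL14 against shCTR and shMETTL3 against shMETTL14 cells, in place of 19, 15 and 18. With DESeq2 no ligand was called in shMETTL14 against shCTR cells (AREG at -0.48), and with the GC and length trend removed 2 were (AREG, and PDGFA at -0.54), a setting that also moved PDGFB in shMETTL3 against shCTR cells to 0.81. Without the filter on low counts, 9 pathway genes were called in shMETTL14 cells. Over all tested genes, the fit of the compared groups alone called 2407 in shMETTL3 and 990 in shMETTL14 against shCTR cells, in place of 2912 and 1184. Between the knockdowns, where the shCTR libraries were then left out, it called 2905 in place of 2148. PDGFA in shMETTL3 against shCTR cells passed with library size alone (log2 fold change 0.50) and with the replicate block (0.45), and the block ended no call of a ligand. With 1 library left out, the lone library of its group was assumed to vary like the other groups. The called ligands then numbered 0 to 2 in shMETTL14 against shCTR cells and 1 to 2 between the knockdowns. The called pathway genes numbered 11 to 25 in shMETTL3 cells (11 without shMETTL3 replicate 2), 3 to 16 in shMETTL14 cells (3 without shMETTL14 replicate 1, 7 without shMETTL14 replicate 2, 9 without shCTR replicate 1) and 9 to 25 between the knockdowns (9 or 10 without any 1 of the 4 libraries compared). On the log2 scale PDGFA then lay from 0.26 to 0.65 in shMETTL3 and from -0.72 to -0.33 in shMETTL14 cells, PDGFB from 0.78 to 1.10 in shMETTL3 cells and from 1.55 to 1.87 between the knockdowns, TGFB1 from 0.060 to 0.28 in shMETTL14 cells and from 0.23 to 0.37 between the knockdowns, and AREG from -0.61 to -0.33 in shMETTL14 cells. Of 37 pairs of a named pathway gene and a comparison, 15 were called in every alternative fit, the fold threshold aside, and 22 lost the call in at least 1. The cause of these shifts was not tested. With 2 libraries a group, small changes could not be told from the spread, and 6 ligands were too low to test.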
